A study of Mus musculus with 58 samples.

Results

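Disease-associated microglia genes are a set of transcripts that microglia, the resident macrophages of the brain, raise around amyloid plaques, in demyelination and in ageing. The 10 genes described here, *Trem2*, *Tyrobp*, *Cst7*, *Lpl*, *Itgax*, *Clec7a*, *Cd68*, *Axl*, *Spp1* and *Gpnmb*, were taken by symbol from the table of the entorhinal cortex (EC), a region affected early in Alzheimer's disease, and from that of the primary visual cortex (PVC), a region affected late. All 10 were found among the 31246 genes listed for each region. RNA-sequencing was performed on dissected tissue of both regions from male C57Bl/6 mice of 14-15 months, which gave 58 libraries. In each region 10 mice were *APOE3/3* and 19 were *APOE3/4*. All mice are targeted replacement mice in which human *APOE* stands in place of mouse *Apoe* under the endogenous mouse promoter. No group therefore carries mouse *Apoe*, every mouse carries at least 1 *APOE3* allele, and the groups differ in whether the second allele is *APOE4* or *APOE3*. The animals came from 2 separate colonies, and which mouse came from which colony was not used here.

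Microglia sense lipids, lipoproteins and dying cells through TREM2, which has no signalling tail and signals through the adaptor TYROBP. Apolipoprotein E is a ligand of TREM2 and is itself made by microglia in the disease-associated state. In this state the genes of resting, homeostatic microglia are lowered, and phagocytic, lysosomal and lipid handling genes are raised. The programme is described as proceeding in steps, with *Tyrobp* raised before TREM2 is needed and *Trem2*, *Axl*, *Cst7*, *Lpl*, *Itgax* and *Clec7a* raised later. None of the 10 is made by microglia alone. *Axl* is also expressed by endothelium and astrocytes, *Lpl* and *Spp1* by some neurons, and *Gpnmb* by macrophages outside the parenchyma and by melanocytes.

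The values used are, for each gene and region, the mean over the 29 mice of the normalized read count, the log2 fold change (*APOE3/4* over *APOE3/3* mice) with its standard error (SE) and the *p*-value of a Wald test by DESeq2, adjusted by the Benjamini-Hochberg method over the genes of a region. A gene is called differentially expressed at an adjusted *p* under 0.05. Fold changes were shrunken toward 0, more strongly for weakly expressed genes. Levels for each genotype are given as fitted levels, calculated from the mean over all mice, the group sizes and the fold change, and they carry no spread over mice. Markers of the labelled tissue were present, with 7 of 7 neuronal and 16 of 16 homeostatic microglia markers tested in both regions. A standard normal distribution has a spread of 1. The spread of the Wald statistics over all genes tested was 1.60 for the EC and 1.17 for the PVC.

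Of the 10 genes, *Gpnmb* alone was differentially expressed in the EC, and it was lower in *APOE3/4* mice. *Gpnmb* encodes a transmembrane glycoprotein of lysosomes and phagosomes in macrophages and foam cells. Its mean normalized count in the EC was 206, with fitted levels of 252 in *APOE3/3* and 181 in *APOE3/4* mice. The log2 fold change was -0.47 ± 0.10 (SE), a change of -28% with a 95% interval of -37.3% to -17.4% (adjusted *p* = 0.00049, DESeq2). In the PVC its mean was 69.2, the fitted levels were 70.5 and 68.5, and the log2 fold change was -0.04 ± 0.13 (adjusted *p* = 0.96, DESeq2). One called gene of 10 is to be read against 7.05% of the 18320 genes tested in the EC that were called in either direction, and 3.73% that were called lower in *APOE3/4*. By *p*-value *Gpnmb* was at rank 118 of the genes tested in the EC. These are bulk libraries, in which fewer cells of a type and less RNA per cell cannot be told apart.

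The call for *Gpnmb* depended on the spread of the statistics. After division of all EC statistics by their spread of 1.60, its adjusted *p* was 0.55 (DESeq2 statistic, rescaled) and none of the 10 genes was called. The same holds for the genes of other lists named below as called in the EC, of which 7 were called before and 0 after rescaling, with adjusted *p* of 0.79 to 0.95. Undoing the shrinkage gave *Gpnmb* a log2 fold change of -0.73, with the SE taken to rise to a limit as counts fall. The deposited SEs did not do so at the lowest counts. In the EC the SE was 0.15 for *Mlana*, a melanocyte marker with a mean of 1.18, and 0.17 for *Cst7*, with 8.53. The value of -0.73 is therefore not an estimate of the fold change before shrinkage. After a trend on exon length and mean count was removed over all genes, the adjusted *p* of *Gpnmb* was 0.0057 (DESeq2 statistic, recomputed).

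No member was called in the PVC, where 9 of the 10 were tested. This is to be read against 0.332% of the 16563 genes tested there. *Clec7a* had a *p*-value but no adjusted *p*-value in the PVC, where its mean normalized count of 5.07 was the lowest of the 10. Signs of the fold changes were mixed. In the EC, 3 members had a fold change above 0 and 7 below, with a median log2 fold change of -0.11 beside -0.0039 over all genes tested. In the PVC, 4 of all 10 were above and 6 below 0, with a median of -0.02. Over the 9 members tested there, 4 were above and 5 below, with a median of -0.0087 beside -0.0046 over all genes tested. Without adjustment, *p* was under 0.05 for 3 of 10 members in the EC (*Gpnmb*, *Axl* and *Cst7*), beside 22% of all genes tested. In the PVC it was under 0.05 for 1 of the 9 members tested (*Spp1*), beside 9.91% of genes, and also for *Clec7a*. These shares of members are close to those of all genes.

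**Figure D1:**
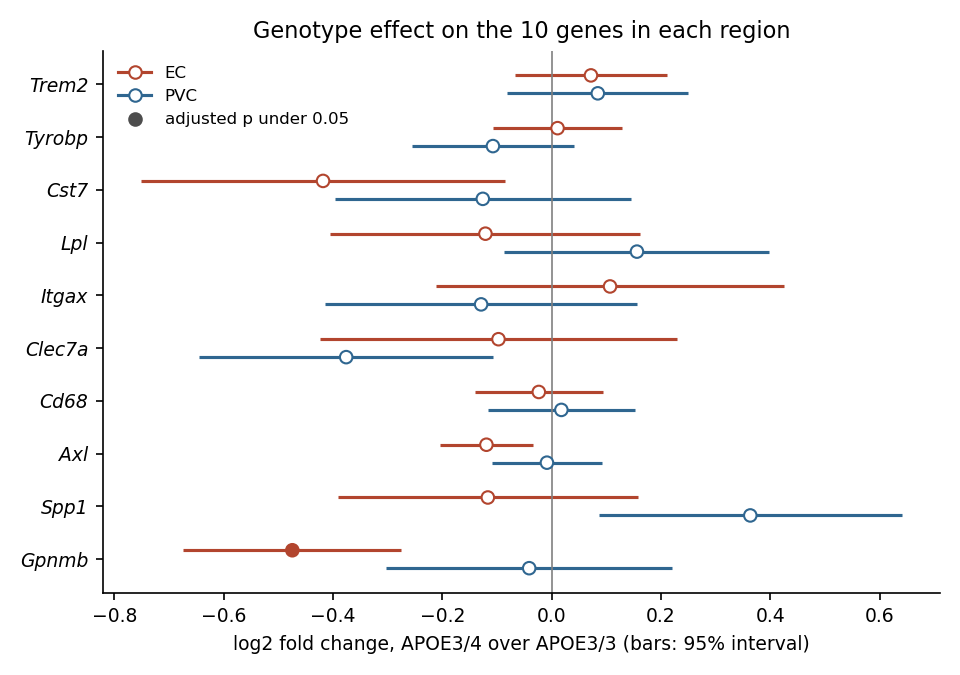
Genotype effect on the 10 genes. Points are log2 fold changes of *APOE3/4* over *APOE3/3* mice in the EC (red) and PVC (blue), bars are 95% intervals from the standard errors, and filled points are genes with an adjusted *p* under 0.05. *Gpnmb* in the EC, at -0.47, is the only filled point. The intervals of *Axl* and *Cst7* in the EC and of *Spp1* and *Clec7a* in the PVC also leave out 0, but the first 3 did not pass adjustment and *Clec7a* has no adjusted *p*.

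The receptor and its adaptor were among the better expressed members, and neither was called. *Trem2* (chr17:48485726-48493472, plus strand, NCBIM37) had a mean normalized count of 567 in the EC against 334 in the PVC. Its fitted levels were 548 in *APOE3/3* and 576 in *APOE3/4* mice in the EC, and 322 and 341 in the PVC. The change was 5.10% in the EC, with a 95% interval of -4.56% to 15.8%, and 6.02% in the PVC, with an interval of -5.45% to 18.9%. *Tyrobp* (chr7:31198807-31202596, plus strand) had means of 524 and 278. Its fitted levels were 522 and 526 in the EC, a change of 0.75% with an interval of -7.17% to 9.34%, and 291 and 270 in the PVC, a change of -7.18% with an interval of -16.2% to 2.85%. For both genes in both regions, the intervals leave out a change of the size seen for *Gpnmb* in the EC. Among 13 measured genes linked to TREM2 and TYROBP signalling, 1 was lower and 0 were higher in the EC, and 0 of 13 were called in the PVC. The gene called was *Plcg2*, the phospholipase C that TREM2 signalling activates, with a log2 fold change of -0.22 ± 0.07 in the EC (adjusted *p* = 0.043, DESeq2) and 0.01 ± 0.11 in the PVC (adjusted *p* = 0.99). *Syk*, the kinase recruited by TYROBP, had log2 fold changes of -0.17 ± 0.09 and -0.12 ± 0.11, neither of them called.

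*Axl* (chr7:26542292-26573724, minus strand), a receptor tyrosine kinase of the TAM family that binds dying cells through the bridging ligand GAS6, had the highest mean normalized count of the 10. Its mean was 2530 in the EC, with fitted levels of 2669 in *APOE3/3* and 2457 in *APOE3/4* mice. The log2 fold change was -0.12 ± 0.04, the smallest SE among the members, and the adjusted *p* was 0.066 (DESeq2), above the threshold of 0.05. In the PVC the mean was 1343, the fitted levels were 1348 and 1340, and the log2 fold change was -0.0087 ± 0.05 (adjusted *p* = 0.98). *Axl* lies 6.26 Mb from *Apoe* on chromosome 7, nearer than *Tyrobp*, at 10.91 Mb, and *Itgax*, at 114.99 Mb. Of the other 4 genes of the family and its ligands, 0 were called in either region. The closest to a call was *Mertk*, the TAM receptor of homeostatic microglia, with a log2 fold change of -0.18 ± 0.08 in the EC (adjusted *p* = 0.15).

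The secreted protein osteopontin, the product of *Spp1* (chr5:104864137-104870069, plus strand), showed fold changes of opposite sign in the 2 regions. Its mean in the EC was 1177, with fitted levels of 1240 in *APOE3/3* and 1144 in *APOE3/4* mice and a log2 fold change of -0.12 ± 0.14 (adjusted *p* = 0.67, DESeq2). In the PVC its mean was 299.7, with fitted levels of 252 and 325 and a log2 fold change of 0.36 ± 0.14. That is a change of 28.6% with an interval of 6.17% to 55.9%, and the adjusted *p* was 0.29. None of 8 osteopontin receptor genes (*Cd44* and integrin chains) was called in either region. *Itga5*, the receptor chain with the smallest *p* in the EC, had a log2 fold change of 0.19 ± 0.08 there (adjusted *p* = 0.11) and -0.07 ± 0.12 in the PVC.

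*Lpl* (chr8:71404390-71431347, plus strand) encodes lipoprotein lipase, which releases fatty acids from the triglycerides of lipoproteins. Its means were 592 (EC) and 468 (PVC). Fitted levels were 625 in *APOE3/3* and 574 in *APOE3/4* mice in the EC, and 435 and 485 in the PVC, for log2 fold changes of -0.12 ± 0.14 and 0.16 ± 0.12 (adjusted *p* = 0.67 and 0.73, DESeq2). The error of *Lpl* was larger than that of *Trem2*, *Tyrobp* and *Cd68*, which had similar means. Of 8 tested partners of lipoprotein lipase and genes of lipid handling, 0 were called in either region. *Soat1*, which esterifies cholesterol for storage, was the closest in the EC, at -0.16 ± 0.06 (adjusted *p* = 0.086).

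*Cd68* (chr11:69477715-69479655, minus strand), a lysosomal glycoprotein used as a mark of phagocytic microglia, had one of the narrowest intervals. Its mean was 557 in the EC, with fitted levels of 563 in *APOE3/3* and 554 in *APOE3/4* mice, a change of -1.62% with an interval of -9.27% to 6.67%. In the PVC the mean was 241, the fitted levels were 239 and 242, and the change was 1.24% with an interval of -7.82% to 11.2%. None of its 5 relatives and partners in the lysosomal membrane, *Lamp1* among them, was called in either region, with 4 of them tested in each.

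*Cst7*, *Itgax* and *Clec7a* were near the lower limit of what was measured. *Cst7* (chr2:150396151-150404680, plus strand), which encodes cystatin F, an inhibitor of lysosomal cathepsins, had means of 8.53 (EC) and 6.82 (PVC). Its fitted levels in the EC were 10.2 in *APOE3/3* and 7.64 in *APOE3/4* mice, a log2 fold change of -0.42 ± 0.17 (adjusted *p* = 0.11, DESeq2). In the PVC they were 7.21 and 6.61, a log2 fold change of -0.13 ± 0.14 (adjusted *p* = 0.83). The shrunken fold change of *Cst7* in the EC was thus nearly as large as that of *Gpnmb* but had the largest SE of the 10. The 2 values were not shrunken alike, and how far the shrinkage moved each of them is not known. Among 7 cathepsins, cystatins and legumain, 1 was higher and 0 were lower in the EC, and 0 were called in the PVC. The gene called was *Lgmn*, or legumain, a lysosomal asparaginyl endopeptidase, with 0.17 ± 0.05 in the EC (adjusted *p* = 0.028).

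*Itgax* (chr7:135273061-135294171, plus strand), the CD11c integrin chain, had means of 20.7 and 7.34. Its log2 fold changes were 0.11 ± 0.16 in the EC (adjusted *p* = 0.75, DESeq2) and -0.13 ± 0.15 in the PVC (adjusted *p* = 0.84). With the trend on exon length and mean count removed they were 0.24 and -0.07, and neither was called. Of 5 genes of the beta2 integrin chains and their activator, 0 were called, with 5 tested in the EC and 4 in the PVC. *Clec7a* (chr6:129411611-129422790, minus strand), which encodes Dectin-1, a receptor for beta-glucans, had means of 9.49 and 5.07. Its log2 fold change was -0.10 ± 0.17 in the EC (adjusted *p* = 0.78). In the PVC it was -0.38 ± 0.14, with fitted levels of 5.97 in *APOE3/3* and 4.60 in *APOE3/4* mice, and no adjusted *p* was given. When all genes with a *p*-value in the PVC were adjusted together, *Clec7a* had an adjusted *p* of 0.37. Of 5 other genes of signalling by Dectin-1 and related receptors, 0 were called in either region, with 5 tested in the EC and 4 in the PVC. Wide 95% intervals of the change were found in the EC for these genes, at -40.6% to -5.73% for *Cst7*, -13.6% to 34.2% for *Itgax* and -25.5% to 17.3% for *Clec7a*.

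*Gpnmb* itself (chr6:48986517-49020928, plus strand) is a target of the MiT family of transcription factors, which control pigment and lysosomal genes. Of *Mitf*, *Tfeb*, *Tfe3*, *Tfec* and *Pmel*, 4 were tested in each region and 0 were called. *Pmel*, the pigment cell paralog of *Gpnmb*, had a mean normalized count of 19.6 in the EC and a log2 fold change of -0.35 ± 0.14 there (adjusted *p* = 0.11, DESeq2), beside -0.0047 ± 0.15 in the PVC. *Mitf* had a log2 fold change of -0.04 ± 0.06 in the EC. No exon of the 10 genes overlaps another annotated gene in NCBIM37.

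Whether the effect of genotype differed between the EC and PVC was tested from the difference of the 2 fold changes. A two-sided *z*-test used their standard errors, taking the errors as independent although both regions came from the same 29 mice. The fold changes were shrunken separately in each region, so unequal shrinkage also enters the difference. None of the 9 members tested in both regions passed at an adjusted *p* under 0.05, beside 0.0605% of the 16534 genes tested in both. For *Gpnmb* the EC minus PVC difference in log2 fold change was -0.43 ± 0.17, with a 95% interval of -0.76 to -0.10 (*z*-test, *p* = 0.0099, adjusted *p* = 0.39). For *Spp1* it was -0.48 ± 0.20, with an interval of -0.87 to -0.09 (*z*-test, *p* = 0.016, adjusted *p* = 0.45). These were the 2 members with an unadjusted *p* under 0.05, a share to be read beside 8.56% of all genes tested in both. With an assumed correlation of 0.3 between the errors of the regions, the adjusted *p* was 0.087 for *Gpnmb* and 0.12 for *Spp1*. *Gpnmb* was thus called in the EC and not in the PVC, but a difference between the regions was not shown after adjustment. Of the other members, *Axl* had a difference of -0.11 ± 0.07 and *Trem2* one of -0.01 ± 0.11. The signs in the 2 regions were the same for 5 members and opposite for 5.

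**Figure D2:**
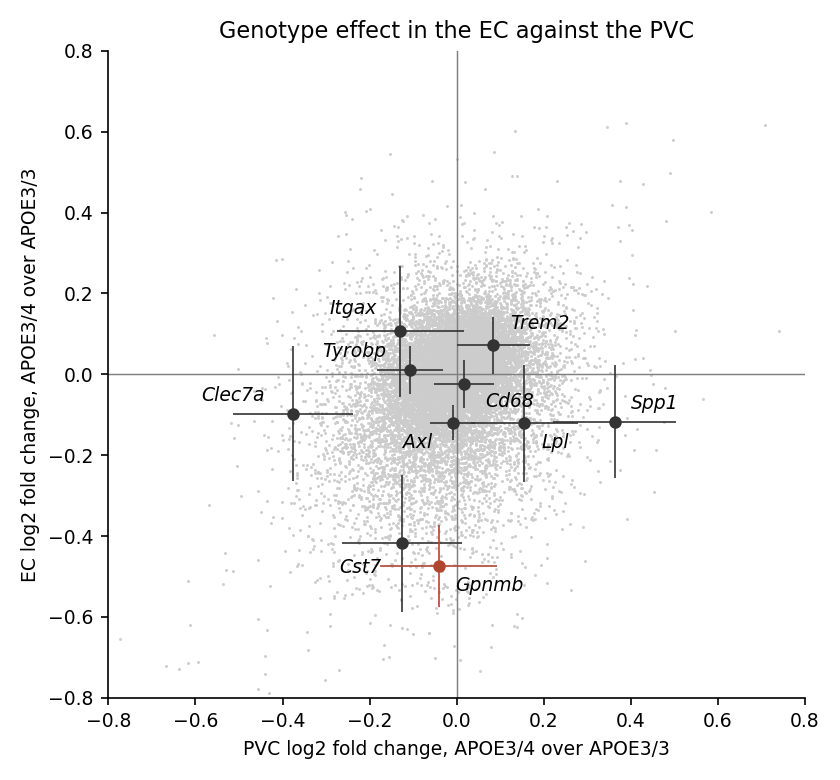
Genotype effect in the EC (vertical axis) against that in the PVC (horizontal axis), both as log2 fold change of *APOE3/4* over *APOE3/3*. Small grey points are the genes tested in both regions, of which 7 lie outside the axes, and large points are the 10 genes with bars of 1 SE. *Gpnmb* (red) lies low on the EC axis at -0.47 and near 0 in the PVC, and *Spp1* lies to the right, at 0.36 for the PVC.

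The level of the 10 genes in the 2 regions was compared as CPM, the mean normalized count of a gene per 1000000 of the sum over all genes of the region. The 2 tables were normalized separately and hold no spread over mice, so these values are given without a test. Together the 10 genes made up 125 CPM in the EC and 113 CPM in the PVC. *Spp1* differed most, with 23.8 CPM in the EC against 11.1 in the PVC. Its ratio of 2.15 was above that of 97.3% of genes tested in both regions. *Gpnmb* had 4.16 and 2.56 CPM, a ratio of 1.63, and *Itgax* 0.42 and 0.27, a ratio of 1.54. *Cd68* had a ratio of 1.26. *Tyrobp*, *Axl* and *Clec7a* were at ratios of 1.03, 1.03 and 1.03, and *Trem2* at 0.93. *Lpl* and *Cst7* had the lowest ratios of the 10, at 0.69 and 0.69. The pair of the receptor and its adaptor therefore stood at nearly the same level in both regions. The 2 members with the largest EC to PVC ratios, *Spp1* and *Gpnmb*, were also those with the largest regional difference in fold change. Other members did not follow this. *Itgax* had an EC minus PVC difference of 0.24, opposite in sign, and *Cst7* and *Lpl*, with the lowest ratios, had -0.29 and -0.28.

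**Figure D3:**
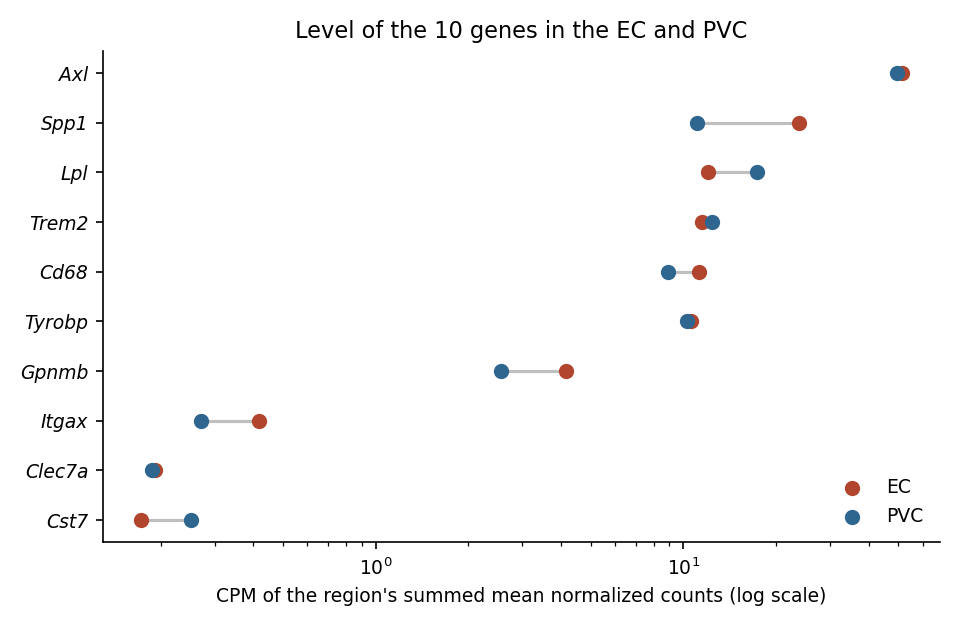
Level of the 10 genes in the EC (red) and PVC (blue) in CPM of the region's summed mean normalized counts, on a log scale, over all 29 mice of a region. *Spp1*, *Gpnmb*, *Itgax* and *Cd68* stand higher in the EC, and *Lpl* and *Cst7* higher in the PVC. Counts are not divided by length here, so only the 2 points of a gene are to be compared.

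Levels between genes were compared as the CPM of a gene divided by the kilobases of all its annotated exons. In the EC, *Tyrobp* was highest at 18.8, followed by *Spp1* at 14.5, *Axl* at 10.2 and *Cd68* at 8.97. *Trem2* stood at 2.32, *Lpl* at 1.76 and *Gpnmb* at 0.90, and *Cst7*, *Itgax* and *Clec7a* at 0.18, 0.10 and 0.08. In the PVC the order began with *Tyrobp* at 18.2, *Axl* at 9.86, *Cd68* at 7.10 and *Spp1* at 6.72. The place of *Trem2* depended on the length used. All its annotated exons together span 4946 bases and its longest protein-coding transcript 1088 bases, and with the latter *Trem2* stood at 10.5 (EC) and 11.4 (PVC). Without a spread over mice, it cannot be said which neighbours in these orders differ.

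Members of the same programme and markers of other cells were set beside the 10 genes. Of 22 other genes of the disease-associated state, 21 were tested in the EC and 19 in the PVC, and 0 were called in either. In the EC 11 of them had a fold change above 0 and 10 below, with a median log2 fold change of 0.02, and in the PVC 9 were above and 10 below, with a median of -0.02. The gene closest to a call in the EC was *Ctsb*, the lysosomal protease cathepsin B, with 0.08 ± 0.03 (adjusted *p* = 0.059, DESeq2). Of the 16 markers of homeostatic microglia, 2 were higher and 0 lower in the EC and 0 were called in the PVC. Those 2 were the purinergic receptors *P2ry12*, with 0.17 ± 0.05 (adjusted *p* = 0.031), and *P2ry13*, with 0.22 ± 0.06 (adjusted *p* = 0.0052). In the EC, 14 of the 16 had a fold change above 0, with a median of 0.07, and in the PVC 13 of the 16, with a median of 0.07. Over all genes tested, 7.05% were called in the EC in either direction. The median log2 fold changes of all genes tested were -0.0039 (EC) and -0.0046 (PVC). No test compares these lists with the 10 genes.

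Several marker lists of cells at the surface of the brain had medians below 0 in the EC, where *Gpnmb* was lower, and their part in its value was not tested. Medians below 0 were not limited to such cells, with -0.11 for astrocytes and -0.12 for oligodendrocyte precursors in the EC. Of 8 markers of border macrophages, the macrophages of meninges and vessels, 1 was lower in the EC, *Cd163*, a haemoglobin scavenger receptor, at -0.39 ± 0.13 (adjusted *p* = 0.041, DESeq2). In the EC 6 of the 8 had a fold change below 0 (median -0.11), and in the PVC 7 of the 8 had one above 0 (median 0.11) with none called. The fitted sum of the border macrophage markers in the EC was 58.2 CPM in *APOE3/3* and 53.9 in *APOE3/4* mice. All 8 meningeal fibroblast markers had a fold change below 0 in the EC (median -0.16), and 6 of the 8 had one above 0 in the PVC (median 0.20), with none called in either. Their fitted sum was 299 CPM in *APOE3/3* and 269 in *APOE3/4* mice in the EC, and 93.5 and 106 in the PVC. Of the 6 melanocyte markers, 3 were tested in the EC. These were *Pmel*, *Tyr* and *Slc45a2*, with means of 19.6, 41.5 and 5.62 and log2 fold changes of -0.35 ± 0.14, -0.22 ± 0.10 and -0.34 ± 0.17. All 3 had the sign of *Gpnmb*, and none was called. Their unadjusted *p* was under 0.05, as for 22% of all genes tested in the EC. *Mlana*, *Tyrp1* and *Dct* had means of 1.18, 1.65 and 3.91, below the lowest mean of a gene tested in the EC, 4.24. Their log2 fold changes in the EC were -0.08 ± 0.15, 0.0066 ± 0.16 and 0.16 ± 0.17, so the signs of the whole list were mixed. The list summed to 1.49 CPM there. Of the 6 choroid plexus markers, 5 were below 0 in the EC (median -0.24) and 2 of 5 tested were above 0 in the PVC, with none called.

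Of 8 monocyte and dendritic cell markers, 7 were tested in the EC and 3 in the PVC, and 0 were called. Of 8 astrocyte markers, 1 was lower in the EC, the glutamate transporter gene *Slc1a2*, at -0.19 ± 0.05 (adjusted *p* = 0.0044, DESeq2). All 8 had a fold change below 0 there (median -0.11). Of 7 neuronal markers, 1 was higher in the EC, the synaptic gene *Snap25*, at 0.14 ± 0.04 (adjusted *p* = 0.0086). All 8 oligodendrocyte markers had a fold change above 0 in the EC (median 0.10) and below 0 in the PVC (median -0.12), and none was called. Of 8 endothelial and pericyte markers, 7 were above 0 in each region (medians 0.09 and 0.09), and of 5 oligodendrocyte precursor markers, 4 were below 0 in the EC (median -0.12) and 3 in the PVC, with none of either list called. The part of these cells in the values of the 10 genes was not tested.

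**Figure D4:**
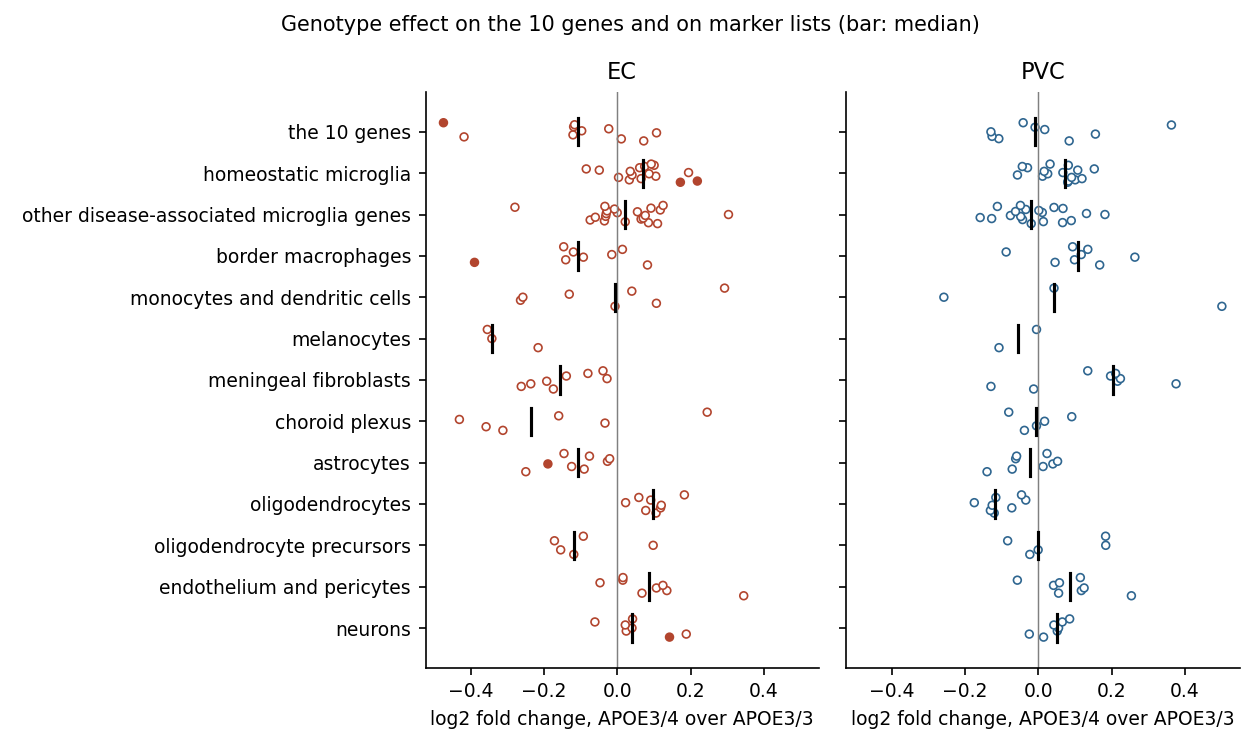
Genotype effect on the 10 genes and on marker lists in the EC (left) and PVC (right), as log2 fold change of *APOE3/4* over *APOE3/3*. Each point is a tested gene, filled where its adjusted *p* is under 0.05, and black bars are medians. In the EC, the lowest medians are those of melanocytes (-0.34, from 3 tested genes) and choroid plexus (-0.24). Medians of the 10 genes (-0.11), border macrophages (-0.11), meningeal fibroblasts (-0.16), astrocytes (-0.11) and oligodendrocyte precursors (-0.12) also lie below 0. The median of monocytes and dendritic cells is at -0.0065. That of homeostatic microglia (0.07) lies above 0. In the PVC the median of meningeal fibroblasts is at 0.20.

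Promoter sequences of 8 of the 10 genes were available from RefSeq (GRCm38.p6), as windows of 250 bases before to 50 bases after the start of transcription. There was no entry for *Tyrobp* and *Lpl*. They were searched on both strands for 3 motifs of factors that act in activated macrophages. These included GGAAGT, the core bound by PU.1, and CACGTG, the E-box bound by the MiT family. The third, TGANTCA, is the AP-1 motif with any base allowed at its centre. In the sequences below this base is A in *Trem2*, T in *Cst7* and C or G in the others. TGANTCA was found in 5 of the 8 members (*Trem2*, *Cst7*, *Itgax*, *Cd68* and *Gpnmb*) and in 8.97% of the 27025 genes with a window. Its first base lay at -9 in *Trem2*, -6 in *Cst7*, -56 in *Itgax*, -149 and -24 in *Cd68* and 9 in *Gpnmb*, counted from the start at 1. GGAAGT was found in 4 of the 8 (*Cst7*, *Itgax*, *Cd68* and *Spp1*) and in 26.5% of all genes. CACGTG was found in 0 of the 8 and in 8.09% of all genes, and neither *Axl* nor *Clec7a* held any of the 3. The 5 sequences with TGANTCA are shown because members that share it, such as *Gpnmb* and *Trem2*, had different fold changes in the EC. Each runs 5′ to 3′ on the strand of the gene, from 70 bases before the start through the first 20 bases of the transcript, with matches to any of the motifs in capitals. The positions are chr6:49036448-49036537 (plus strand) for *Gpnmb*, chr2:150570345-150570434 (plus) for *Cst7*, chr17:48346331-48346420 (plus) for *Trem2*, chr7:128129480-128129569 (plus) for *Itgax* and chr11:69666151-69666240 (minus) for *Cd68*.
Gpnmb: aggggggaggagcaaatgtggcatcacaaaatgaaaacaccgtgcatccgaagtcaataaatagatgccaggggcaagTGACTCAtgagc
Cst7: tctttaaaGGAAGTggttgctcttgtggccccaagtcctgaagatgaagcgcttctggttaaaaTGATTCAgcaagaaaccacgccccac
Trem2: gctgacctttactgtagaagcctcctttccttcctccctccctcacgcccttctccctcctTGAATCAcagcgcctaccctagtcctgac
Itgax: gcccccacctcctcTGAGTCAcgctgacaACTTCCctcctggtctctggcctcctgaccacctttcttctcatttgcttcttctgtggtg
Cd68: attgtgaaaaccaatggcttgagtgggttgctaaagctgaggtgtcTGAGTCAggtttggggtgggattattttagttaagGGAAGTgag

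The match of *Gpnmb* lies inside the transcribed part, that of *Cst7* spans the start, and those of *Trem2*, *Itgax* and *Cd68* lie before it. Holding the motif did not go with one direction of effect. In the EC the log2 fold changes of the 5 genes that hold it were -0.47 for *Gpnmb*, -0.42 for *Cst7*, -0.02 for *Cd68*, 0.07 for *Trem2* and 0.11 for *Itgax*. Those of the 3 genes without it were -0.12 for *Axl*, -0.12 for *Spp1* and -0.10 for *Clec7a*. A match of letters is a description of the sequence and does not show that a factor binds there.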

How the data were processed

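RNA of the EC and PVC of 10 *APOE3/3* and 19 *APOE3/4* mice was sequenced, and region and genotype were taken from the labels. Per the methods and labels, the authors aligned single-end reads to mm9 with TopHat2 2.0.6 and Bowtie2 2.0.2.0, counted reads per gene with HTSeq and tested genotype in each region with DESeq2 1.10.1. The table of each region is that comparison. The mean normalized count is a signal the authors deposited, the mean over a region's 29 libraries of counts divided by size factors. The log2 fold change and its SE were deposited by the authors as shrunken values. The deposited Wald score is the fold change over its SE. Each p-value and adjusted p-value was deposited by the authors. These comparison columns are the only values per genotype used here, so no count model was fitted, and the depth of single libraries was not analysed here. Over all genes tested, the SE that sets the precision had a median of 0.07 (EC) and 0.08 (PVC).

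With scipy 1.17.1, pandas 2.3.3 and numpy 2.4.6 under Python 3.11.15, *p*-values were adjusted again over the same genes as in the deposited tables, and regions were compared by a *z*-test. The steps were tested on simulated data. For the undoing of shrinkage, the simulation used the same formula, so it could not show that the deposited values follow it. Shrinkage was undone with the largest SE of a region standing for the width of the prior, where this moved a value by at most 2-fold. This takes the SE to rise toward that width as counts fall, which the deposited SEs did not do at the lowest counts. Lengths and positions are of NCBIM37 (GENCODE), and promoters of GRCm38.p6 (RefSeq). Symbols of 6 list entries were found under an older name, and *Ms4a4a* and *Rbfox3* were not matched. Named genes are the 10 members and, of the other lists, each gene called in either region or the gene with the smallest EC *p*-value. *Syk*, *Mitf*, *Tfeb*, *Tfe3*, *Tfec*, *Cd44* and the melanocyte markers beside *Pmel* were named after their values were seen. The members and lists were chosen with earlier results of these data known.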

Additional observations from a re-analysis of the deposited data

How the results depend on the processing

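No paired analysis was possible because the tables hold no values of single mice, and for the same reason no mouse could be left out and neither colony nor repeated sequencing runs could be entered in a fit. The EC count was 1 of 10 in all settings but 2. It was 0 with the statistics divided by their robust spread, where the adjusted *p* of *Gpnmb* was 0.55, and 3 at an unadjusted *p* under 0.05, which was added after the data were seen. The PVC count of 0 and the count of 0 for the difference between regions held when every gene with a *p*-value entered the adjustment, with a minimum mean of 10, with the rescaled statistics, with the trend removed and at a threshold of 0.01. They were 2 and 2 at an unadjusted *p* under 0.05. Of 48 log2 fold changes recomputed, 43 kept their direction and their side of the threshold and 5 changed direction, all with the trend removed: *Tyrobp* (-0.0263) and *Clec7a* (0.0173) in the EC, and *Cd68* (-0.0111), *Axl* (0.00366) and *Gpnmb* (0.000965) in the PVC, and none of these 5 was called under either setting. The cause was not tested. Without a change of direction, 3 values moved by over 1.5 times with the trend removed, *Itgax* in both regions (0.24 and -0.07) and *Cd68* in the EC (-0.06). *Axl* in the PVC did so when the median of all genes was subtracted (-0.0041) and *Gpnmb* in the EC with the shrinkage undone (-0.73). The latter value rests on an assumption about the SE that the lowest counts did not bear out. Scaling by the median ratio of genes in place of the summed means multiplied each EC to PVC ratio by 0.98. Low counts limit *Cst7*, *Itgax* and *Clec7a*.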
